A study of Saccharomyces cerevisiae with 26 samples.

Results

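The first 10 min after a large glucose pulse were set against the first 10 min after a small one in Saccharomyces cerevisiae grown in galactose chemostats, continuous cultures fed with galactose. A pulse of 2 g/l glucose was followed on 4 arrays, at 3, 5, 7 and 10 min, and a pulse of 0.2 g/l on 5 arrays, at 2, 4, 6, 8 and 10 min. These 9 arrays, chosen by the dose and time in their titles, are 9 of the 26 in the series. Every array carried total RNA in both colours: the culture at the given time in Cy5, and the culture before the pulse (t=0) in Cy3. The labels used here name no strain.

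The values are log2 ratios of the sample after the pulse to the t=0 sample, so that 1 stands for a doubling and 0 for no difference from t=0. A difference is always the mean over the arrays of 2 g/l minus the mean over those of 0.2 g/l. Each time was measured on 1 array of 1 culture, with no replicate culture and no array with the dyes exchanged. The times of a pulse therefore stand in for replicates, and real change between them adds to the SD. The SEs and p-values of the main fit refer to a spread per gene pooled over 7 time windows of all 26 arrays. They do not refer to the SDs printed for the early arrays alone. The dose, the culture and the t=0 extract of each pulse cannot be told apart. Neither the log base nor the direction of the ratio is written in the table: base 2 was inferred from the values, and Cy5 was taken as the numerator.

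Yeast cells sense glucose at the plasma membrane through Snf3 and Rgt2, which release the hexose transporter (HXT) genes from the repressor Rgt1 and its partners Mth1 and Std1. Glucose also turns off the genes of galactose use, through the repressor Mig1 and the kinase Snf1, and lowers the stress genes driven by Msn2 and Msn4 through protein kinase A. Iron uptake is governed separately, by the activators Aft1 and Aft2. When iron is scarce these switch on surface reductases, the Fet3 and Ftr1 uptake pair, carriers of siderophores (iron chelators released by microbes), and Tis11, a protein that speeds the decay of mRNAs for iron-using proteins.

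Between 7979 and 9765 spots had a value on the 9 arrays, which gave 5222 to 5602 genes. The fewest came from the arrays of 10 min and 7 min after 2 g/l (7979 and 8313 spots), which also had the widest spread of all genes (SD 0.98 and 0.85, against 0.42 to 0.74 on the other 7 arrays). The arrays of a pulse were not always most alike. Across genes, the array of 5 min after 2 g/l correlated at 0.51, 0.64 and 0.62 with those of 3, 7 and 10 min of its own pulse, and at 0.42, 0.57, 0.71, 0.73 and 0.74 with those of 2, 4, 6, 8 and 10 min after 0.2 g/l. The arrays of 7 and 10 min after 2 g/l correlated at 0.80 with each other, and with that of 8 min after 0.2 g/l at 0.69 and 0.72, above their values with 3 min (0.65 and 0.60) and 5 min of their own pulse. Leaving out the array of 5 min moved the number of genes called more than leaving out any other, so the main counts are also given without it.

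By the main fit few genes differed between the pulses in the first 10 min. Most of those that were higher after 2 g/l were genes of the iron response, which lay near their t=0 level after 2 g/l and below it from the first array on after 0.2 g/l. On the other side stood 13 genes that were lower after 2 g/l, among them SIP18, a stress gene, GPD2, for a glycerol 3-phosphate dehydrogenase, FDH1 and FDH2, for formate dehydrogenases, and ARO3 and LEU4, for entry steps of amino acid synthesis. The lower calls were the less stable ones: a fit of the window means on the 9 early arrays alone called 12 genes as higher and 0 as lower. With a straight line through time for each pulse, the same 9 arrays kept 13 of the 13 higher and 10 of the 13 lower calls. Of the 13 lower genes 3 kept their calls whichever array was left out, against 10 of the 13 higher genes. Of 5372 genes tested with limma, 26 differed between the pulses at an adjusted p under 0.05 (0.484%), with 13 higher (0.242%) and 13 lower (0.242%) after 2 g/l. Unadjusted p-values under 0.05 numbered 649. The window means of the pulses correlated at 0.81 across genes, and the differences of all genes had a median of -0.06 and an SD of 0.37.

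Against t=0, limma called 2019 genes after 2 g/l (37.6%), with 904 higher (16.8%) and 1115 lower (20.8%). After 0.2 g/l it called 1600 genes (29.8%), with 973 higher (18.1%) and 627 lower (11.7%). The 658 genes higher after both pulses were 72.8% of those higher after 2 g/l and 67.6% of those higher after 0.2 g/l. The 426 genes lower after both were 38.2% of those lower after 2 g/l and 67.9% of those lower after 0.2 g/l. Just 5 genes were called in opposite directions. FRE1, for a ferric reductase, AKR1, for a palmitoyltransferase, and SNF3 were higher after 2 g/l and lower after 0.2 g/l, while FDH1 and FDH2 were lower after 2 g/l and higher after 0.2 g/l. SNF3 had only 2 values after 2 g/l, -0.32 at 5 min and 5.22 at 10 min, and its difference did not pass (3.76, adjusted p = 0.0658). The calls of each window depended on its last arrays: without the array of 10 min, 1157 genes were called after 2 g/l. After 0.2 g/l, 1043 were called without the array of 8 min and 997 without that of 10 min.

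**Figure D1:**
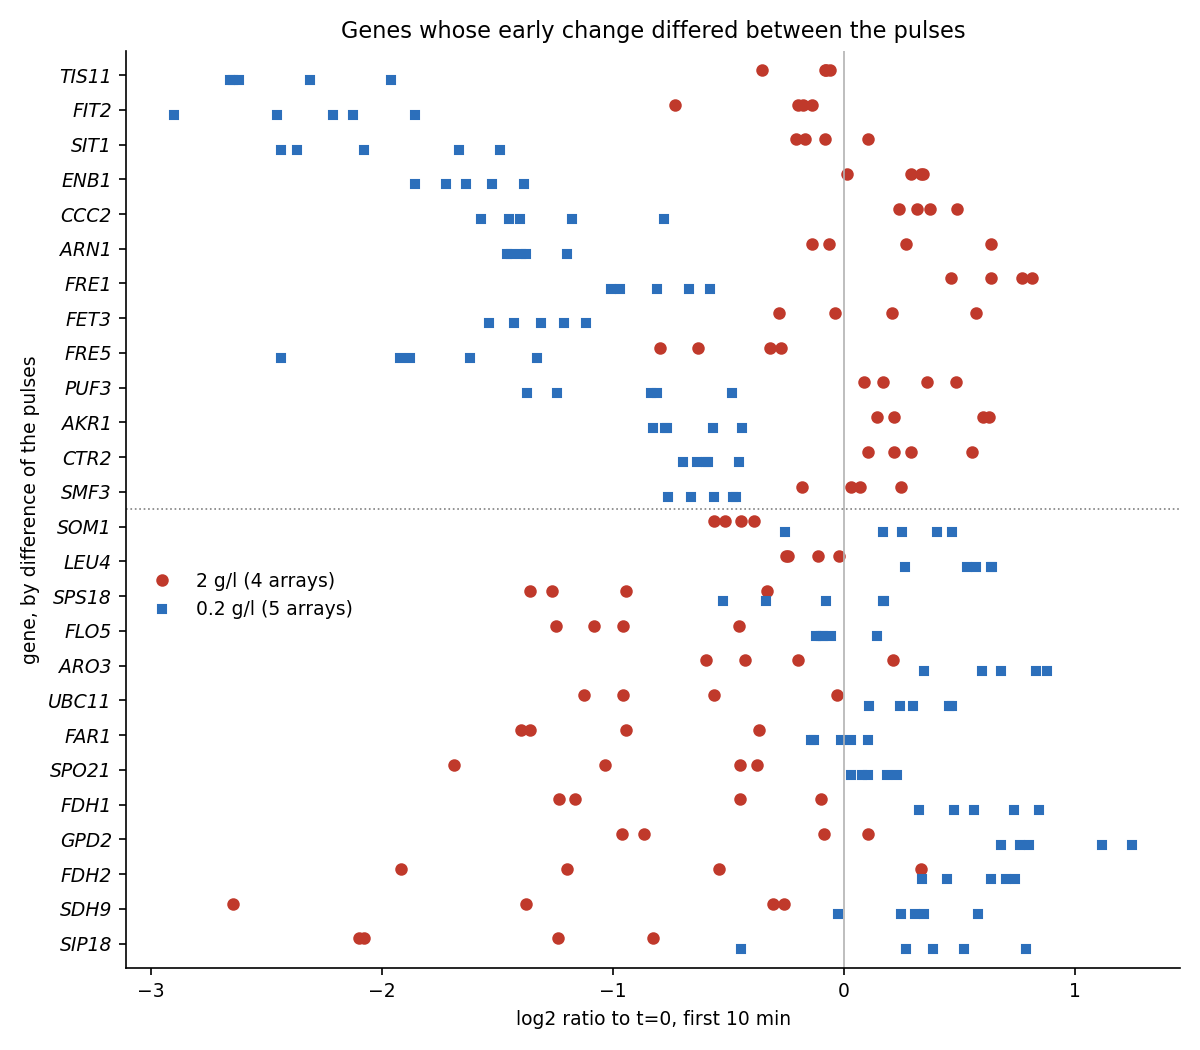
Log2 ratio to t=0 (horizontal axis) of each early array for the 26 genes that differed between the pulses, ordered by the difference, with circles for the 4 arrays of 2 g/l above squares for the 5 arrays of 0.2 g/l. The 13 genes above the dotted line were higher after 2 g/l, with all arrays apart, and the arrays of SPS18 overlap among the 13 below it.

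Of the 13 genes higher after 2 g/l, 10 belonged to a list of iron response genes that had 32 members tested out of 33 listed. TIS11, which has the widest gap, had log2 ratios of -0.08, -0.35, -0.06 and -0.08 at 3, 5, 7 and 10 min after 2 g/l, against -1.96, -2.31, -2.66, -2.62 and -2.64 at 2, 4, 6, 8 and 10 min after 0.2 g/l. All arrays of 2 g/l lay near 0, and those of 0.2 g/l were far below from 2 min on. The means were -0.14 ± 0.14 (SD, n = 4) after 2 g/l and -2.44 ± 0.30 (SD, n = 5) after 0.2 g/l, a difference of 2.29 ± 0.22 (SE) or 4.91-fold (limma, adjusted p = 3.21e-06).

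The carriers of iron-loaded siderophores had the same pattern. SIT1, for the ferrioxamine carrier, stood at 0.10, -0.08, -0.20 and -0.17 after 2 g/l, against -1.49, -1.67, -2.08, -2.37 and -2.43 after 0.2 g/l. ENB1, for the enterobactin carrier, stood at 0.34, 0.29, 0.01 and 0.33 after 2 g/l, against -1.39, -1.52, -1.72, -1.85 and -1.63 after 0.2 g/l. ARN1, for the ferrichrome carrier, stood at 0.27, 0.64, -0.14 and -0.06 after 2 g/l, against -1.40, -1.46, -1.20, -1.38 and -1.44 after 0.2 g/l. In each of these 3 genes the lowest array of 2 g/l lay more than 1 log2 unit above the highest array of 0.2 g/l. The differences were 1.92 ± 0.24 for SIT1, 1.87 ± 0.23 for ENB1 and 1.55 ± 0.19 for ARN1 (SE, adjusted p = 5.89e-05 for each). FIT2, for a cell wall mannoprotein that helps retain siderophore iron, was at -0.31 ± 0.28 (SD, n = 4) after 2 g/l and at -2.31 ± 0.39 (SD, n = 5) after 0.2 g/l, a difference of 2.00 (adjusted p = 0.00248). The carrier gene ARN2 did not pass: it averaged -1.44 ± 1.20 after 2 g/l and -1.34 ± 0.65 after 0.2 g/l (adjusted p = 0.988), and after 2 g/l it was at -0.40, -0.42, -2.26 and -2.67.

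The reductive route, in which iron is first reduced at the surface and then oxidized and imported by Fet3 and Ftr1, had 3 called members (FET3, FRE1 and FRE5), and the copper pump gene CCC2 and the vacuolar gene SMF3 were called beside them. FET3, for the multicopper oxidase, stood at 0.21, 0.57, -0.28 and -0.04 after 2 g/l, against -1.11, -1.43, -1.21, -1.54 and -1.31 after 0.2 g/l. The groups did not overlap, and the difference was 1.44 ± 0.18 (SE, adjusted p = 5.89e-05). CCC2, for the copper pump that loads Fet3 with copper, averaged 0.36 ± 0.11 after 2 g/l and -1.27 ± 0.31 after 0.2 g/l, a difference of 1.63 (adjusted p = 0.00121). FRE1 stood at 0.46, 0.64, 0.77 and 0.81 after 2 g/l, against -1.01, -0.97, -0.81, -0.58 and -0.67 after 0.2 g/l. It was the iron gene called in both pulses in opposite directions (adjusted p against t=0 of 0.0309 after 2 g/l and 0.00719 after 0.2 g/l), with a difference of 1.48 ± 0.32 (SE, adjusted p = 0.0322). FRE5, for a putative reductase, averaged -0.50 ± 0.25 after 2 g/l and -1.83 ± 0.41 after 0.2 g/l (difference 1.33, adjusted p = 0.0336). SMF3, for a vacuolar metal transporter, averaged 0.04 ± 0.18 after 2 g/l and -0.59 ± 0.13 after 0.2 g/l (difference 0.63, adjusted p = 0.0322).

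Of these 10 iron genes, 3 lost their calls when 1 of several arrays was left out, though their differences stayed within 1.43 to 1.55 for FRE1, 1.18 to 1.46 for FRE5 and 0.56 to 0.70 for SMF3. FRE1 kept its call only without the array of 3 min or 5 min of 2 g/l, with adjusted p of 0.0528 to 0.113 without any other array. FRE5 kept its call only without 5 min of 2 g/l or 2 min of 0.2 g/l (0.051 to 0.133 without the others). SMF3 kept its call only without 5 min of 2 g/l or 2 min or 4 min of 0.2 g/l (0.0711 to 0.109 without the others). TIS11, FIT2, SIT1, ENB1, CCC2, ARN1 and FET3 kept theirs whichever of the 9 arrays was left out. In a limma fit on the 9 early arrays alone, FRE5 and SMF3 did not pass (adjusted p = 0.0521 and 0.109). FRE1 did (adjusted p = 0.00128), with an SE of 0.133 there against 0.322 in the main fit.

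**Figure D2:**
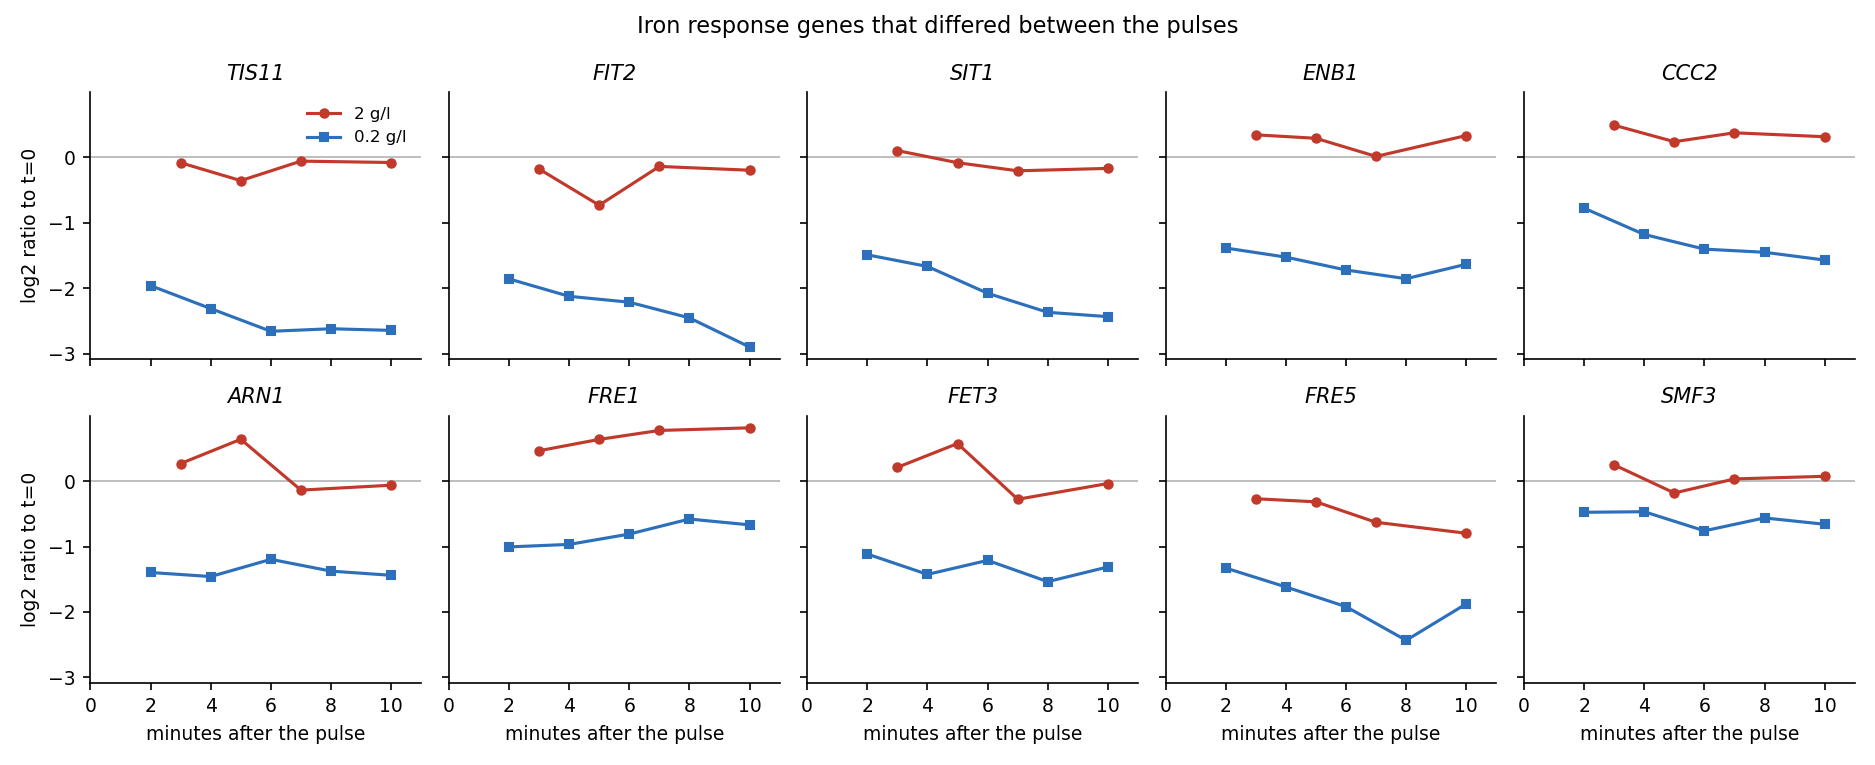
Log2 ratio to t=0 against minutes after the pulse for the 10 iron response genes that were higher after 2 g/l (circles) than after 0.2 g/l (squares), 1 point per array. The curves were apart from the first array of each pulse on, and those of 2 g/l lay near 0 for most genes.

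Most of the remaining iron genes leaned the same way without passing the main test. FTR1, for the permease that works with Fet3, stood at 0.10, 0.79, 0.41 and 0.16 after 2 g/l, against -0.22, -1.0, -0.69, -0.05 and -0.75 after 0.2 g/l. The groups did not overlap and the difference of 0.91 narrowly missed the threshold (adjusted p = 0.0508), as did that of FTH1, for a vacuolar iron permease (1.24, adjusted p = 0.0515). FIT3, another mannoprotein gene, was at 0.02 ± 0.02 (SD, n = 4) after 2 g/l and -0.74 ± 0.08 (SD, n = 5) after 0.2 g/l, without overlap (adjusted p = 0.0965). FIT1, also a mannoprotein gene, leaned the other way, at -0.02 after 2 g/l and 0.17 after 0.2 g/l (adjusted p = 0.968). In the limma fit on the 9 early arrays alone FIT3 passed (adjusted p = 0.00841), while FTR1 and FTH1 did not (adjusted p = 0.214 and 0.243). HMX1, for a haem oxygenase, averaged -0.44 after 2 g/l and -1.25 after 0.2 g/l (adjusted p = 0.0914), and FRE2, for a surface reductase, 0.03 after 2 g/l and -0.77 after 0.2 g/l (adjusted p = 0.106). Of the other reductase genes, FRE3 and FRE6 had differences of 0.51 and 0.52 (adjusted p = 0.455 and 0.0914), and FRE4 one of -0.01 (adjusted p = 0.999). MRS4, for a mitochondrial iron carrier, was lower than t=0 after both pulses, at -0.93 ± 0.28 after 2 g/l and -1.17 ± 0.18 after 0.2 g/l. Neither regulator gene passed: AFT1 averaged 0.19 after 2 g/l and -0.31 after 0.2 g/l (adjusted p = 0.702, with spots that disagree), and AFT2 0.22 after 2 g/l and 0.34 after 0.2 g/l (adjusted p = 0.886). The 6 members with a negative difference were FET4 (-0.31), FIT1 (-0.186), AFT2 (-0.117), BIO5 (-0.096), ARN2 (-0.095) and FRE4 (-0.01), none of which passed.

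Over all 32 members, 10 were higher, 0 were lower and 20 had an unadjusted p under 0.05, as 12.1% of all genes did. The median difference was 0.58, against -0.06 for all genes, and 26 members were positive, as were 2168 of all 5372 genes. The 4 arrays of 2 g/l lay above all 5 of 0.2 g/l for 17 members, which 1.94% of all genes did. Against t=0, 4 members were higher (12.5%, against 16.8% of all genes) and 5 lower (15.6%, against 20.8%) after 2 g/l. After 0.2 g/l, 1 was higher (3.12%, against 18.1%) and 21 were lower (65.6%, against 11.7%). The member medians were 0.03 after 2 g/l and -0.69 after 0.2 g/l.

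The gap was present at the earliest times. For the 10 called iron genes the median per array was 0.23, 0.08, -0.10 and -0.05 at 3, 5, 7 and 10 min after 2 g/l, against -1.36, -1.49, -1.56, -1.70 and -1.60 at 2, 4, 6, 8 and 10 min after 0.2 g/l. The time-matched difference of the 32 members had a median of 0.72 at 3 min, 0.86 at 5 min, 0.70 at 7 min and 0.75 at 10 min. In these matched values an array of 2 g/l at 3, 5 or 7 min was set against the mean of the 2 neighbouring arrays of 0.2 g/l. The arrays of a pulse may share 1 t=0 sample, which the labels do not state, so the ratios to the end of each time course were compared as well. At 180 to 240 min after 2 g/l and at 90 to 150 min after 0.2 g/l the same 10 genes had medians of -0.82 and -0.96. With each early window taken relative to that last window of its pulse, the 10 differences ranged from 0.41 to 1.83 with a median of 1.31, and none passed (limma, adjusted p = 0.0814 to 0.978). Over the 32 members the median was 0.52 on that scale and 27 were positive, as were 1989 of all 5372 genes. On the same scale limma called 2 of all genes (0.0372%). These were RAD30, for a DNA polymerase (1.91, adjusted p = 0.0155, 0.0186% higher), and TDH1, for a glyceraldehyde 3-phosphate dehydrogenase (-1.22, adjusted p = 0.031, 0.0186% lower).

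The other 3 genes higher after 2 g/l lay outside the iron list. PUF3, for a protein that binds mRNAs of mitochondrial proteins, stood at 0.17, 0.48, 0.36 and 0.09 after 2 g/l, against -0.81, -0.48, -0.84, -1.24 and -1.37 after 0.2 g/l (difference 1.22 ± 0.21 SE, adjusted p = 0.00364). AKR1 stood at 0.63, 0.60, 0.15 and 0.22 after 2 g/l, against -0.56, -0.44, -0.77, -0.82 and -0.76 after 0.2 g/l (difference 1.07 ± 0.19 SE, adjusted p = 0.00526). CTR2, for a vacuolar copper transporter, averaged 0.29 ± 0.19 after 2 g/l and -0.59 ± 0.09 after 0.2 g/l (difference 0.89, adjusted p = 0.0055). All 3 were positive on every array of 2 g/l and negative on every array of 0.2 g/l, and kept their calls without any 1 of the 9 arrays. Relative to the last window of each pulse the difference of PUF3 turned to -0.47 (adjusted p = 0.92).

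Among the 13 genes higher after 2 g/l, 11 were not called against t=0 after 2 g/l and were lower after 0.2 g/l, the exceptions being FRE1 and AKR1. The 13 genes lower after 2 g/l were of other kinds: 8 fell after 2 g/l and were not called after 0.2 g/l, 3 rose after 0.2 g/l and were not called after 2 g/l, and FDH1 and FDH2 did both.

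SIP18, for a hydrophilin of the osmotic stress response, had the lowest difference. It stood at -0.82, -1.24, -2.08 and -2.10 after 2 g/l, against 0.79, 0.39, 0.52, 0.27 and -0.45 after 0.2 g/l. Every array of 2 g/l lay below every array of 0.2 g/l. The difference was -1.86 ± 0.41 (SE, adjusted p = 0.0322). SDH9, for a minor form of the succinate dehydrogenase flavoprotein, stood at -0.26, -0.31, -1.38 and -2.64 after 2 g/l, against 0.58, 0.35, 0.31, 0.25 and -0.03 after 0.2 g/l (difference -1.44, adjusted p = 0.0454). FAR1, for an inhibitor of the cyclin-dependent kinase in the mating response, was at -0.37, -0.94, -1.36 and -1.40 after 2 g/l and between -0.14 and 0.10 on the arrays of 0.2 g/l (difference -0.99, adjusted p = 0.0055). SPO21, for a meiotic component of the spindle pole body, was at -0.89 ± 0.61 after 2 g/l and 0.13 ± 0.08 after 0.2 g/l (difference -1.01, adjusted p = 0.0194).

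GPD2 belonged to the genes that rose after 0.2 g/l. It stood at 0.10, -0.09, -0.96 and -0.86 after 2 g/l, against 0.76, 1.25, 1.12, 0.80 and 0.68 after 0.2 g/l (difference -1.37 ± 0.29 SE, adjusted p = 0.0322). ARO3, for the first enzyme of aromatic amino acid synthesis, averaged -0.25 ± 0.35 after 2 g/l and 0.67 ± 0.21 after 0.2 g/l (difference -0.92, adjusted p = 0.0055). LEU4, for the first enzyme of leucine synthesis, averaged -0.15 ± 0.11 after 2 g/l and 0.53 ± 0.16 after 0.2 g/l (difference -0.69, adjusted p = 0.0025). None of the 3 was called against t=0 after 2 g/l, and their arrays did not overlap between the pulses.

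FDH1 stood at -0.45, -0.10, -1.16 and -1.23 after 2 g/l, against 0.85, 0.74, 0.56, 0.48 and 0.33 after 0.2 g/l (difference -1.32 ± 0.24 SE, adjusted p = 0.0055). FDH2 averaged -0.83 ± 0.96 after 2 g/l and 0.57 ± 0.17 after 0.2 g/l (difference -1.40, adjusted p = 0.0197). FDH1 and FDH2 are near-identical, so their spots may have read the same RNA, and the same holds for FLO5, 1 of a family of flocculin genes (-0.93 ± 0.34 after 2 g/l, -0.04 ± 0.11 after 0.2 g/l, adjusted p = 0.000993). UBC11, for a ubiquitin-conjugating enzyme, SPS18, a sporulation gene, and SOM1, for a subunit of the mitochondrial inner membrane peptidase, had differences of -0.98, -0.86 and -0.68 (adjusted p = 0.0259, 0.0485 and 0.0322).

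None of the 13 lower calls held in a fit of the window means on the 9 early arrays alone, where limma called 12 genes, all higher. There the lower genes had adjusted p of 0.0688 (SIP18 and LEU4) to 0.249 (SDH9) with the same differences. With a straight line through time for each pulse, limma on the same 9 arrays called 10 of the 13 at 6 min. SIP18 then had an adjusted p of 0.00223 and SDH9 one of 0.00533. In the fit on all 26 arrays, ARO3, FLO5 and LEU4 kept their calls whichever of the 9 was left out. FAR1 and FDH1 missed only without the array of 7 min of 2 g/l (adjusted p = 0.0534 each). SPO21 and FDH2 lost theirs without 7 min or 10 min of 2 g/l or 6 min of 0.2 g/l (0.0684 to 0.0906 and 0.0711 to 0.0985), and UBC11 also without 8 min of 0.2 g/l (0.0759 to 0.13). GPD2 lost its call without any 1 of 5 arrays (7 and 10 min of 2 g/l and 4, 6 and 8 min of 0.2 g/l, 0.0666 to 0.144). SIP18 lost its call without these or 2 min of 0.2 g/l (0.0697 to 0.145), and SDH9 without these, 2 min or 10 min of 0.2 g/l (0.0528 to 0.147). SPS18 lost its call without 3, 7 or 10 min of 2 g/l or 6, 8 or 10 min of 0.2 g/l (0.072 to 0.195). SOM1 lost its call without 3, 7 or 10 min of 2 g/l or 2, 4, 6 or 8 min of 0.2 g/l (0.0504 to 0.124). The median of the 13 genes per array was -0.45, -0.31, -1.03 and -1.20 at 3, 5, 7 and 10 min after 2 g/l, against 0.58, 0.35, 0.46, 0.35 and 0.11 at 2, 4, 6, 8 and 10 min after 0.2 g/l. The lowest values thus came from the arrays of 7 and 10 min, which had the fewest spots and the widest spread, and the part of this in the result was not tested.

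The count of 26 changed with single arrays. Without the array of 5 min after 2 g/l, 170 genes were called, of which 20 were higher and 150 lower, and all 26 were among them. It was 13 without 7 min and 17 without 10 min of 2 g/l, and 15 without 6 min of 0.2 g/l. Iron genes made up 12 of the higher calls without 5 min, and 7 without 7 min. A straight line through time for each pulse, fitted on the 9 arrays alone, called 127 of 5247 genes at 6 min (2.42%), with 36 higher (0.686%) and 91 lower (1.73%), and 14 iron genes were among the higher ones.

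**Figure D3:**
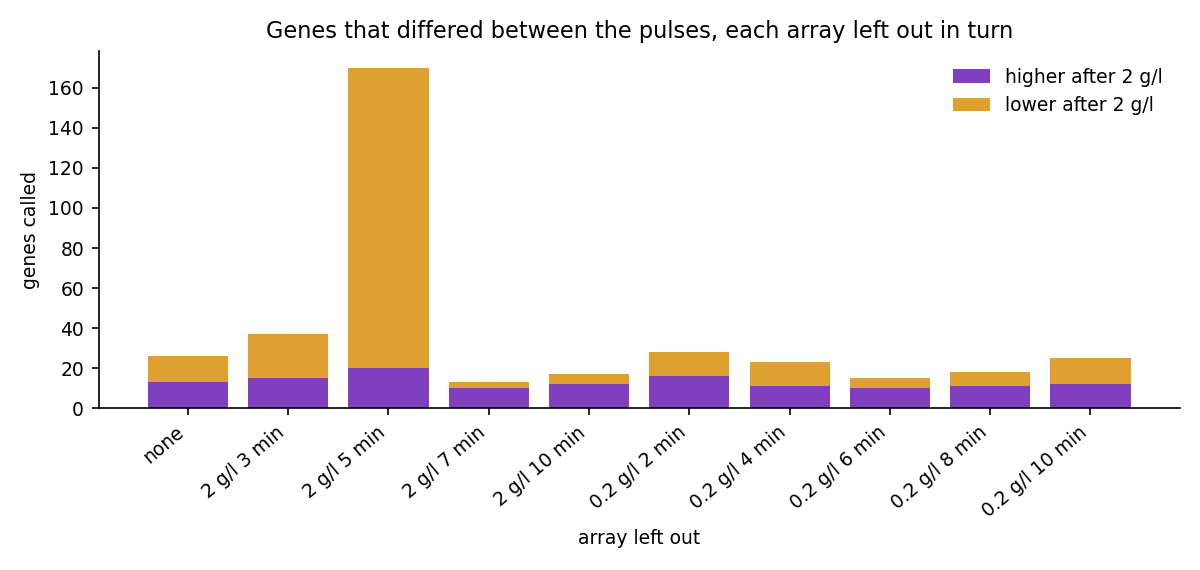
Number of genes called as higher (lower part of each bar) or lower (upper part) after 2 g/l than after 0.2 g/l, with all arrays and with each of the 9 early arrays left out. The count was 26 with all arrays, 13 to 37 without any 1 array other than 5 min of 2 g/l, and 170 without that one.

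With the window means of all arrays, no gene of galactose use, hexose transport or glucose sensing passed the test between the doses. Of all genes 0.484% passed, and in lists this short 0 called is near that share. Of the 9 galactose genes tested, limma called 0 (1 with an unadjusted p under 0.05, as 12.1% of all genes had). All 9 differences were negative, with a median of -0.50. Of all 5372 genes, 3197 had a negative difference. GAL2, for the galactose permease, stood at -0.97, -2.39, -3.51 and -3.88 after 2 g/l, against -0.34, -1.07, -2.44, -2.83 and -2.96 after 0.2 g/l. It fell in both pulses with overlapping values, and the difference of -0.76 ± 0.69 (SE) did not pass (adjusted p = 0.789). GAL1, for galactokinase, was slower in both: it was at 0.11, 0.06, -0.27 and -1.09 after 2 g/l and at 0.40, 0.15, -0.68, -0.21 and -1.05 after 0.2 g/l (difference -0.02, adjusted p = 0.998). GAL7, for the uridylyltransferase, and GAL10, for the epimerase, reached -3.15 and -2.48 at 10 min after 2 g/l, against -2.49 and -1.68 at 10 min after 0.2 g/l. The inhibitor GAL80 averaged -1.01 ± 0.36 after 2 g/l and -0.60 ± 0.32 after 0.2 g/l (adjusted p = 0.449). The inducer GAL3 averaged -1.59 after 2 g/l and -1.03 after 0.2 g/l (adjusted p = 0.713). GAL4, for the activator, stood at -0.56, -0.56, -2.21 and -2.94 after 2 g/l and between -0.66 and -0.25 after 0.2 g/l (difference -1.05, adjusted p = 0.216). GAL4 was lower after 2 g/l by the line through time (-0.96 at 6 min, adjusted p = 0.0484) and without the array of 5 min after 2 g/l (-1.39, adjusted p = 0.0417), the only member of its list called in either way. PGM2, for phosphoglucomutase, averaged -2.15 after 2 g/l and -1.63 after 0.2 g/l, and GCY1, a Gal4 target, -0.89 after 2 g/l and -0.71 after 0.2 g/l.

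HXT1, HXT2 and HXT4 rose with time after both doses. HXT2, for a high-affinity transporter, stood at 0.28, 1.19, 1.72 and 3.06 after 2 g/l, against 0.00, 0.14, 1.52, 2.51 and 4.14 after 0.2 g/l. HXT4 stood at -0.16, 0.81, 1.39 and 2.74 after 2 g/l, against -0.08, -0.18, 0.40, 1.5 and 2.82 after 0.2 g/l. HXT1, for the low-affinity transporter, stood at -0.39, 0.38, 1.57 and 3.8 after 2 g/l, against 0.08, -0.32, 0.04, 1.43 and 2.28 after 0.2 g/l. All 3 had rising slopes that passed the test in both pulses, their values overlapped, and their differences of -0.10, 0.31 and 0.64 had adjusted p of 0.991, 0.943 and 0.875. At 10 min, the one time measured in both, HXT1 was higher after 2 g/l by 1.53 and HXT2 lower by 1.08, each on 1 array per pulse with no test. The slopes of HXT1 over the window were 0.61 per min after 2 g/l and 0.31 per min after 0.2 g/l, and their difference did not pass (adjusted p = 0.269).

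HXT5 fell with time in both pulses, with slopes of -0.20 per min after 2 g/l and -0.22 per min after 0.2 g/l (adjusted p = 0.0201 and 0.00569). The gene of another high-affinity carrier, HXT7, whose sequence is almost that of HXT6, ended at 1.31 after 2 g/l and 1.66 after 0.2 g/l at 10 min, and neither slope passed. Of the 14 transporter genes tested of 17 listed, limma called 0, where 0.484% of all genes were called. An unadjusted p under 0.05 was found for 2, as for 12.1% of all genes, and the median difference was -0.32. HXT17 had the lowest, with -1.16, -1.49, -2.39 and -3.46 after 2 g/l and values from -1.17 to -0.22 after 0.2 g/l (difference -1.31, adjusted p = 0.165). The line through time called HXT17 as lower at 6 min (-1.22, adjusted p = 0.00441), and no other transporter gene. The other minor members HXT8, HXT9, HXT10, HXT11, HXT13, HXT15 and HXT16 had differences from -1.22 to -0.18, HXT5 was at -0.29 and HXT12 at 0.29, and many of these genes are close in sequence, so that their spots may share signal.

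Among the 26 glucose sensing and repression genes, limma called 0, where 0.484% of all genes were called. An unadjusted p under 0.05 was found for 4, as for 12.1% of all genes, and the median difference was 0.03. The corepressor pair parted. STD1 rose alike after both doses: it stood at 0.97, 1.71, 2.56 and 2.61 after 2 g/l, against 0.36, 1.27, 1.84, 2.51 and 2.78 after 0.2 g/l (difference 0.21, adjusted p = 0.968). MTH1 stood at -1.20, -1.39, -1.46 and -1.74 after 2 g/l, against -0.27, -1.33, -0.67, 0.50 and 1.19 after 0.2 g/l. It stayed low after the large pulse, while after the small one it was low at 4 min and above t=0 by 8 min. The difference of the means was -1.33 ± 0.39 (SE, adjusted p = 0.127), and 10 min against 10 min it was -2.92. The slopes were -0.07 per min after 2 g/l and 0.24 per min after 0.2 g/l, and the difference of -0.31 did not pass (adjusted p = 0.295) but did so without the array of 2 min of 0.2 g/l (-0.51, adjusted p = 0.0393).

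CAT8, for the activator of gluconeogenic genes, fell to -4.13 at 10 min after 2 g/l and to -4.05 at 10 min after 0.2 g/l (difference of the means -0.19, adjusted p = 0.985). ADR1, another activator of genes repressed by glucose, whose spots disagree, averaged -0.77 after 2 g/l and -1.28 after 0.2 g/l, and SIP4 -1.42 after 2 g/l and -0.57 after 0.2 g/l (adjusted p = 0.454). Transcripts of the Mig repressors were not called either: MIG1 averaged 0.23 after 2 g/l and 0.25 after 0.2 g/l, MIG2 -1.26 after 2 g/l and -0.63 after 0.2 g/l, and MIG3 0.22 after 2 g/l and -0.42 after 0.2 g/l. The sensor gene RGT2 averaged -1.35 ± 1.23 after 2 g/l and -0.32 ± 0.20 after 0.2 g/l (adjusted p = 0.18, with spots that disagree). Without the array of 5 min after 2 g/l, RGT2 was lower (-1.42, adjusted p = 0.0149) and SNF3 higher (adjusted p = 3.94e-06), SNF3 then from 1 value after 2 g/l. HXK2, for the main hexokinase, stood at -0.43, -0.48, -0.89 and -0.61 after 2 g/l, against -0.76, -0.59, -0.23, -0.14 and 0.22 after 0.2 g/l (slope difference -0.16, adjusted p = 0.19). The remaining members of the list, apart from SNF3 above, had differences from -0.51 (GLC7, for a protein phosphatase) to 0.37 (NRG2, for a repressor).

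**Figure D4:**
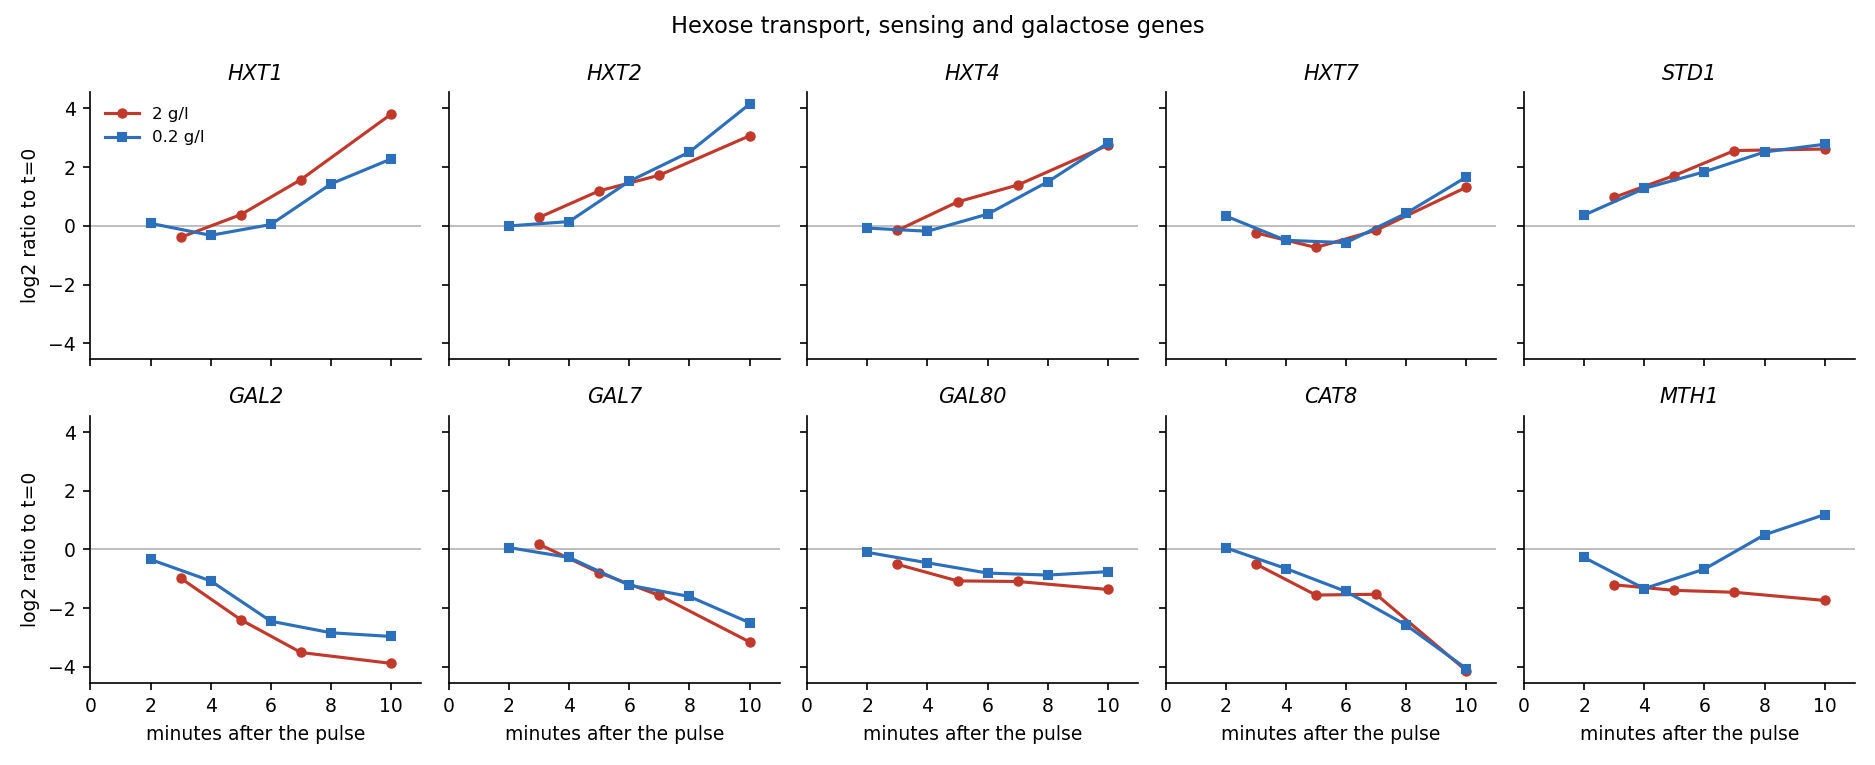
Log2 ratio to t=0 against minutes after the pulse for 5 transporter and sensing genes (top) and 5 galactose and repression genes (bottom), with circles for 2 g/l and squares for 0.2 g/l, 1 point per array. At 10 min the arrays of STD1, CAT8 and HXT4 differ by -0.16, -0.07 and -0.07 between the pulses, while MTH1 ends at -1.74 after 2 g/l and at 1.19 after 0.2 g/l.

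Of the 37 gene lists, 29 held no gene that differed, where 0.484% of all genes did. Of the 26 called genes 19 were in any list, as were 1203 of all 5372 genes. The general stress list had the second lowest median, -0.45, with 44 of 53 members negative, as were 3197 of all 5372 genes. In it 1 gene, SIP18, passed and 13 had an unadjusted p under 0.05 (as 12.1% of all genes did), and all arrays of 2 g/l lay below those of 0.2 g/l for 6 members, against 4.04% of all genes. Its medians were -0.73 after 2 g/l and -0.26 after 0.2 g/l, and against t=0 27 members were lower after 2 g/l (50.9%, against 20.8% of all genes) and 10 after 0.2 g/l (18.9%, against 11.7%). The line through time called 11 of its members as lower at 6 min (1.73% of all genes were). Without the array of 5 min after 2 g/l, 4 were lower, among 150 of all genes. Its median per array was -0.30, -0.54, -0.87 and -1.25 after 2 g/l, against 0.22, 0.03, -0.26, -0.40 and -0.64 after 0.2 g/l, so that the time-matched medians were -0.36, -0.28, -0.39 and -0.36 at 3, 5, 7 and 10 min.

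Lists of growth genes had medians near that of all genes or slightly above it. Of all genes 0.484% were called between the doses and 12.1% had an unadjusted p under 0.05. For 111 ribosome biogenesis genes the median level was 1.04 after 2 g/l and 1.01 after 0.2 g/l. Of these, 88 were higher than t=0 after 2 g/l (16.8% of all genes were) and 84 after 0.2 g/l (18.1% of all genes were). Their median difference was -0.02, with 0 called by limma (3 with an unadjusted p under 0.05). Ribosomal protein genes leaned to the large pulse, with median differences of 0.17 for 77 genes of the large subunit and 0.14 for 54 of the small one. Of these 63 and 43 were positive, as were 2168 of all 5372 genes, and 0 were called (5 and 3 with an unadjusted p under 0.05). The 10 histone genes had the second highest median, 0.32, with 0 called (3 with an unadjusted p under 0.05). HTA2, for a histone H2A, stood at 0.66, 0.96, 1.21 and 1.25 after 2 g/l, against 0.45, 0.49, 0.25, 0.53 and 0.46 after 0.2 g/l, without overlap (difference 0.58, adjusted p = 0.131). Amino acid synthesis outside the sulfur branch had a median of -0.16, with 2 of 68 genes lower, ARO3 and LEU4 (0.242% of all genes were). Without the array of 5 min after 2 g/l, 5 were lower, among 150 of all genes. The meiosis list had a median of -0.22, with 2 of 41 lower, SPO21 and SPS18, and 8 without the array of 5 min after 2 g/l, where 150 of all genes were lower. Its time-matched medians were -0.02 and 0.24 at 3 and 5 min, and -0.56 and -0.83 at 7 and 10 min.

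**Figure D5:**
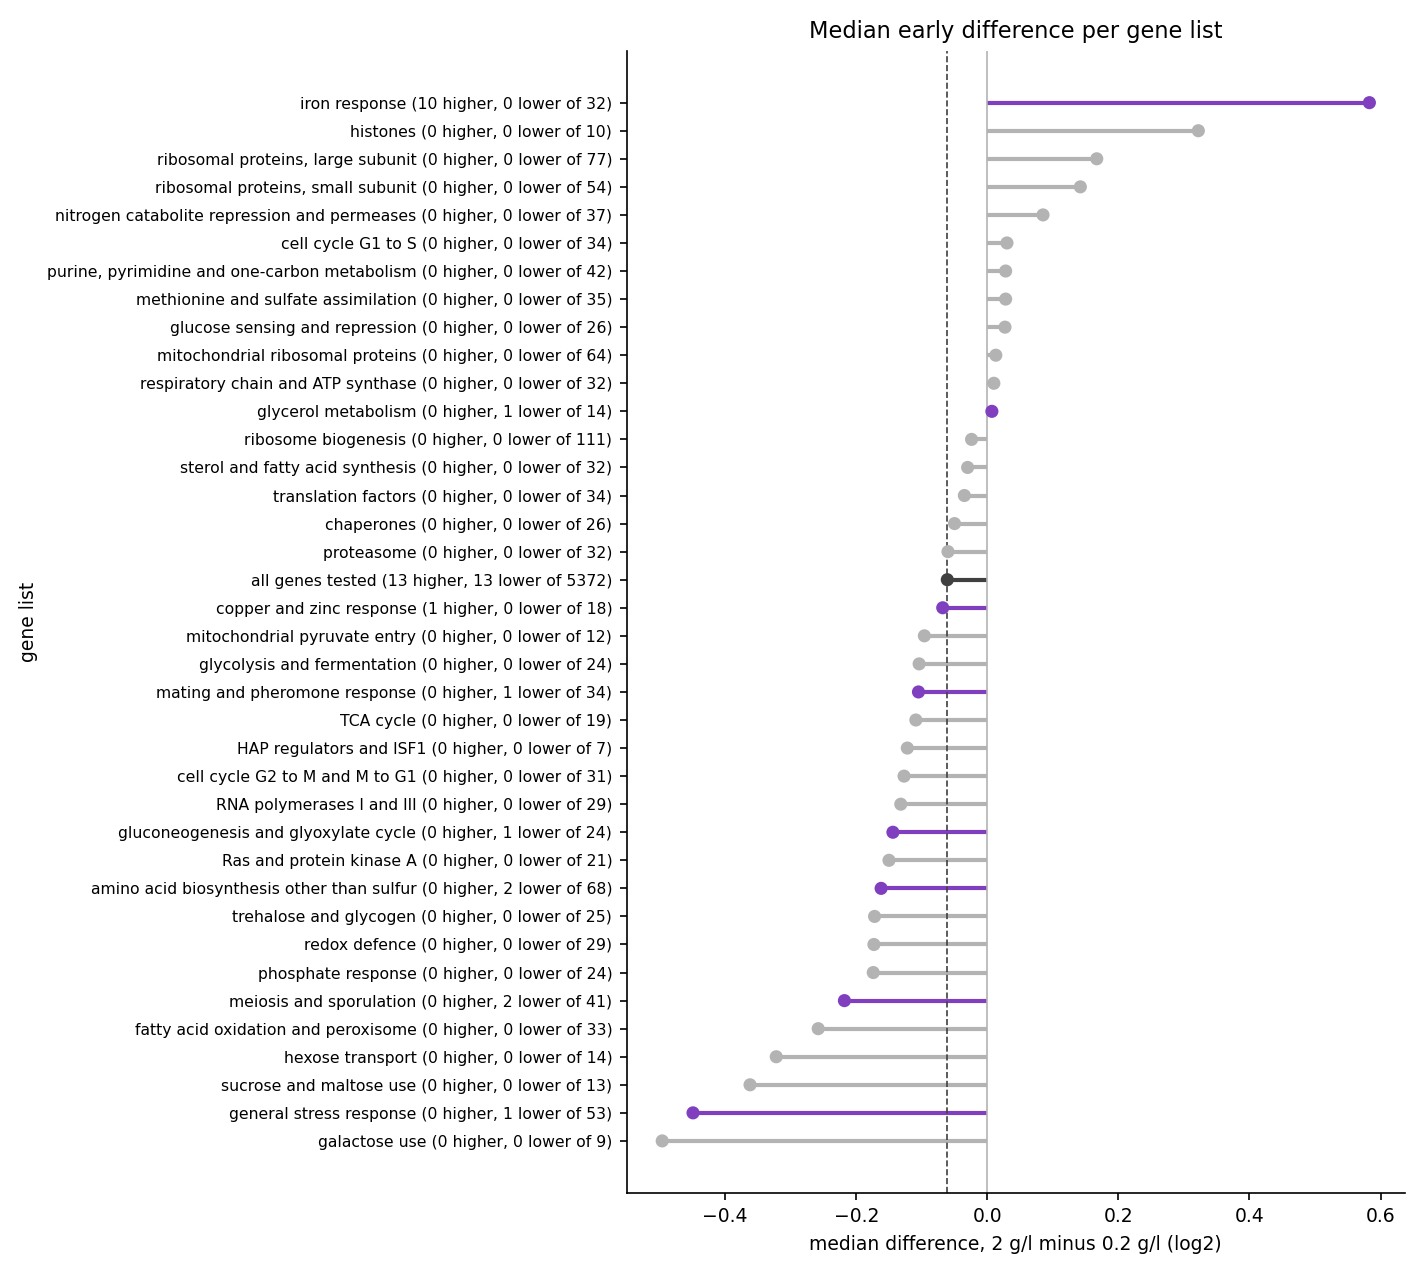
Median difference (2 g/l minus 0.2 g/l, log2) of the tested members of each of 37 gene lists and of all genes tested (dark point and dashed line, -0.06), with the members called in each direction in brackets and lists that hold a call in purple. The iron response list stands at 0.58, and the galactose and general stress lists at -0.50 and -0.45.

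Whether the pulses drew apart within the window was asked with a slope per minute for each pulse, in the 5247 genes with enough values. After 2 g/l, 751 genes changed with time (14.3%), with 218 rising (4.15%) and 533 falling (10.2%). After 0.2 g/l, 644 did (12.3%), with 323 rising (6.16%) and 321 falling (6.12%). No slope differed between the doses by limma (0 called, smallest adjusted p = 0.145), while 741 had an unadjusted p under 0.05, of which 591 were steeper downwards after 2 g/l and 150 were the other way. The count of 0 changed most with 1 array: without 3 min of 2 g/l, 163 slopes differed (13 higher and 150 lower). Without 7 min of 2 g/l there were 7, without 2 min of 0.2 g/l 1, and with quantile normalization 2. The 10 called iron genes had slope differences from -0.07 to 0.14 per min, none of which passed.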

How the data were processed

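The deposited table holds log2 ratios per spot, already normalized by the authors, for 26 2-colour arrays of total RNA. The log2 scale was inferred from the values, and neither the normalization method nor the imaging program is named in the labels. Background signal was not used here, and precision is limited by how many arrays there are. Of 10752 spots, 6834 were paired with 1 gene. All 5606 gene identifiers were found in RefSeq (assembly R64), used only to name genes. Spots of a gene were averaged, and a gene's spots were said to disagree where a pair had a median absolute difference over 0.5.

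Testing was done in R 4.3.3 with limma 3.58.1 on genes with at least 2 values in each window (lmFit with 7 window means over all 26 arrays, eBayes, two-sided, Benjamini-Hochberg over all genes tested, threshold 0.05). The contrast was the early window of 2 g/l minus that of 0.2 g/l. The other windows shared the estimate of the spread. Slopes were fitted on the 9 early arrays, centred at 6 min, for genes with at least 3 values in each pulse. The fits were tested on simulated data. Alternatives are given in the closing section. Named genes were the 12 highest and 12 lowest differences with arrays apart, all members of 4 lists (iron, galactose, transport, sensing) and, from every other list, no more than 4 called genes. RAD30, TDH1 and HTA2 were named after their values were seen. The comparison, the members and the lists, written from general knowledge of yeast, were chosen with earlier results of these data known. Tables were prepared with Python 3.11.15, pandas 2.3.3 and numpy 2.4.6, and figures drawn with matplotlib 3.10.9.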

Additional observations from a re-analysis of the deposited data

Results flagged for a closer look

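Among 190 groups of 4 or 5 arrays checked for the 97 named genes, 11 had an array far from the others of its pulse, where chance gives about 1 in 20. After 2 g/l these were TIS11 at 5 min (-0.35, the others -0.08 to -0.06), FIT2 at 5 min (-0.73, the others -0.20 to -0.14) and FRE4 at 5 min (-0.88, the others -0.12 to -0.02). ENB1 at 7 min (0.015, the others 0.29 to 0.34) and COT1, for a vacuolar metal transporter, at 10 min (-0.41, the others -0.08 to -0.02) were the remaining arrays of 2 g/l. After 0.2 g/l these were ISU2 at 2 min (-0.15), SNF4 at 4 min (-0.048), HXT9 at 8 min (-0.90), FLO5 at 8 min (0.14), ATX1 at 10 min (-0.47) and LEU4 at 10 min (0.26). The early change of 26 genes differed between the pulses by the contrast itself, as given in the report.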

How the results depend on the processing

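Of the 26 calls, 11 held with only the 9 early arrays in the fit and 23 with a time trend per pulse on those 9 arrays. With quantile normalization 21 held, with each array centred on its median 25, and without both arrays of 10 min 13. When 1 array at a time was left out, 171 of 234 held. Against the last window of each pulse 0 held, and PUF3 reversed to -0.474. The count of genes that differed was 12 (12 higher, 0 lower) with only the 9 early arrays, 127 with time trends, 41 (20 higher, 21 lower) with quantile normalization, 17 (11 higher, 6 lower) with a minimum absolute difference of 1, 2 against the last window and 13 (10 higher, 3 lower) without both arrays of 10 min. It was 44 (15 higher, 29 lower) without the arrays of 30, 45 and 90 min after 0.2 g/l, an alternative chosen after seeing the data. Leaving out 1 array gave 13 to 170. It was 24 to 32 with other rules for missing values and spots or with median centring. The count of iron genes was 7 to 14 except 0 against the last window. The count of slope differences was 2 with quantile normalization (ACS1 and CIT3, both higher) and 0 to 163 without 1 array. The windows against t=0 gave 1157 to 1942 genes after 2 g/l and 997 to 1654 after 0.2 g/l without 1 array, and with quantile normalization 2117 after 0.2 g/l. Leaving out arrays also lowers the number of samples; otherwise the cause was not tested. No paired analysis was possible because the labels carry no replicate numbers and 10 min was the only time measured after both pulses, so that the matched values have 1 array per pulse or share arrays.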
